A study of Mus musculus with 30 samples.

Results

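The genes followed here mark the primitive and definitive endoderm and were taken as 1 set across the series, by a list of symbols, drawn up with earlier results of these data known: Sox17, Sox7, Gata6, Gata4, Foxa2, Hnf4a, Pdgfra, Dab2, Cubn and Afp. All 10 were found among the 55421 genes of the deposited table. Primitive endoderm is the layer that forms beside the pluripotent epiblast in the blastocyst and gives rise to the visceral and parietal endoderm of the yolk sac. FGF signalling through the ERK kinases promotes it, the transcription factors GATA6, GATA4, SOX17 and SOX7 specify it, and PDGFRA, DAB2 and CUBN are proteins of its surface and its uptake machinery. Definitive endoderm, the source of gut and liver, arises later at gastrulation and shares SOX17, GATA4, GATA6 and FOXA2 with it.

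Polyadenylated RNA was sequenced from E14 mouse embryonic stem cells, a male (XY) line of 129P2/Ola background, in 10 groups of 3 libraries. All cells grew on gelatin in serum with leukemia inhibitory factor, the MEK inhibitor PD0325901 and the GSK3 inhibitor CHIR-99021, so a MEK inhibitor was present in every group. All 5 lines express Tir1, a plant protein that, with auxin, sends proteins fused to an auxin-inducible degron (AID) to the proteasome. The FKBP degron does so with dTAG-13. The TIR1 line (clone EN148.10) has Tir1 alone. In the PDS5AB line (EN293.1) both PDS5 proteins, PDS5A and PDS5B, also carry the AID tag. In the WAPL line (CMW184) WAPL does. EN331.2 (PDS5AB-NIPBL) and EN382.1 (WAPL-NIPBL) have these tags together with NIPBL-FKBP and RAD21-Halo. Each line was sampled untreated and after 24 h with 500 µM auxin, to which 500 nM dTAG-13 was added in both NIPBL-FKBP lines. PDS5A, PDS5B, WAPL and NIPBL regulate cohesin, the ring that extrudes chromatin loops. Each genotype is 1 named line, so genotype and clone cannot be told apart.

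Library totals ran from 19632704 to 45539021 fragments. Library names fall into 2 sets. Both PDS5AB groups and untreated TIR1 have numbers 1 to 21, and all other groups, auxin-treated TIR1 among them, have numbers 25 to 45. Auxin-treated TIR1 has 43 to 45, and its column names give no clone or replicate, unlike those of the other groups. Whether it forms a set of its own is not stated. The effects within the 4 degron lines therefore compare libraries of 1 set, whereas the TIR1 effect, and the untreated levels of the other 3 degron lines against TIR1, cannot be told apart from the set. The summed level of 7 pluripotency genes (Pou5f1, Sox2, Nanog, Klf4, Esrrb, Zfp42, Tdgf1) stood between 2760 and 5350 CPM (counts scaled to library size) in all 30 libraries. Degrons act on protein, so transcript levels of the tagged genes do not check depletion. Against untreated TIR1 cells, untreated PDS5AB and PDS5AB-NIPBL cells averaged 83.4 and 99.5 against 224 CPM of Pds5a, and 113 and 140 against 110 CPM of Pds5b. Wapl averaged 176 CPM in WAPL and 298 CPM in WAPL-NIPBL cells against 291 CPM, and Nipbl 121 CPM in PDS5AB-NIPBL and 70.0 CPM in WAPL-NIPBL cells against 134 CPM. Nothing in the labels says that replicates are separate cultures, so p-values measure the spread between libraries, which may be technical.

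The set stood at low levels in all groups. Scaled per length and depth (FPKM), group means of Dab2 ran from 0.196 to 5.29, of Gata4 from 0.244 to 1.87, of Pdgfra from 0.174 to 1.70 and of Hnf4a from 0.824 to 1.60. Gata6 ran from 0.0422 to 0.634, and Sox17, Foxa2, Sox7 and Cubn stayed under the upper end of that range, with highest group means of 0.354, 0.426, 0.224 and 0.0733 FPKM. Afp had 73 fragments in all and none in 14 of 30 libraries. In bulk RNA, fewer cells with a transcript and less of it per cell cannot be told apart.

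**Figure D1:**
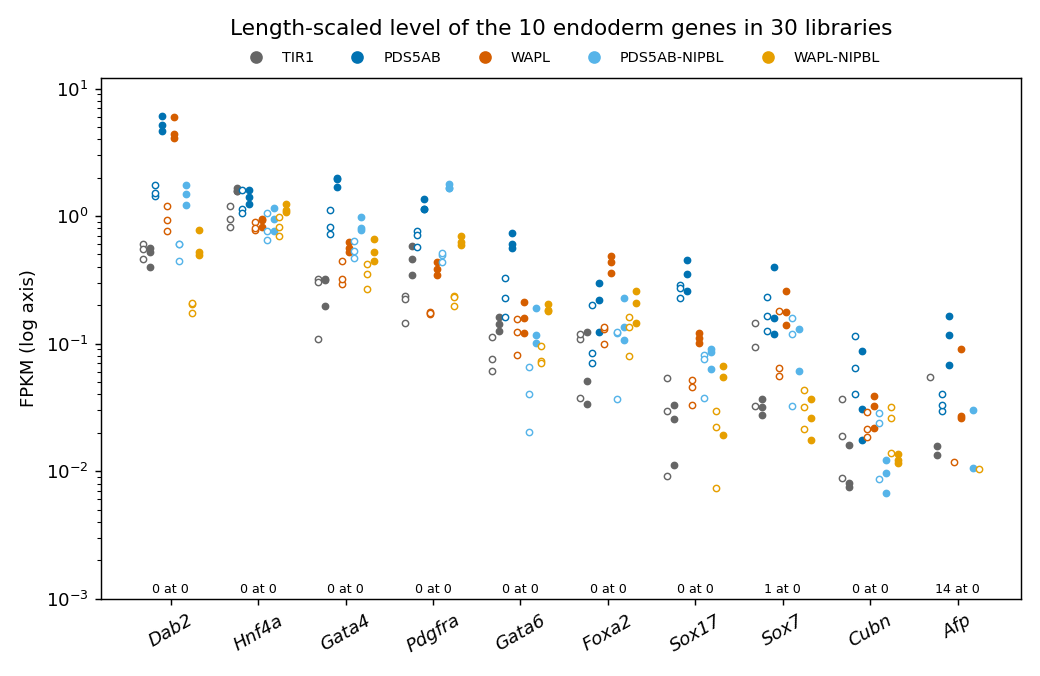
FPKM on a log axis for each of the 10 genes in each of 30 libraries, coloured by line, open for untreated and filled for treated. Libraries at 0 are not drawn and their number is printed under each gene. Dab2 spans the widest range of the more abundant genes, with group means from 0.196 to 5.29.

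Of the 10 genes, 9 passed the filter on low counts and were tested. After treatment, some members were called higher in every line and none was called lower. Counted at an adjusted p under 0.05 (quasi-likelihood F-test of edgeR, Benjamini-Hochberg adjusted over 19868 genes), 2 of 9 were higher in TIR1 cells, where 10.4% of all genes were. The count was 4 of 9 in PDS5AB cells against 25.8% of all genes, and 5 of 9 in WAPL cells against 17% of all genes. It was 3 of 9 in PDS5AB-NIPBL cells against 11.4%, and 3 of 9 in WAPL-NIPBL cells against 5.11%. None was lower in any line, nor at an unadjusted p under 0.05 or by DESeq2 (Cubn was called lower in PDS5AB cells without treated replicate 1), while 9.59% of all genes were lower in TIR1 cells, 20.2% in PDS5AB cells, 15.8% in WAPL cells, 8.06% in PDS5AB-NIPBL cells and 3.45% in WAPL-NIPBL cells. The members' median log2 change was -0.12 for TIR1 cells, 0.82 and 0.99 for the PDS5AB and WAPL lines, and 0.64 and 0.69 for PDS5AB-NIPBL and WAPL-NIPBL cells. The median of all genes lay between -0.01 and 0.04 in these comparisons.

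**Figure D2:**
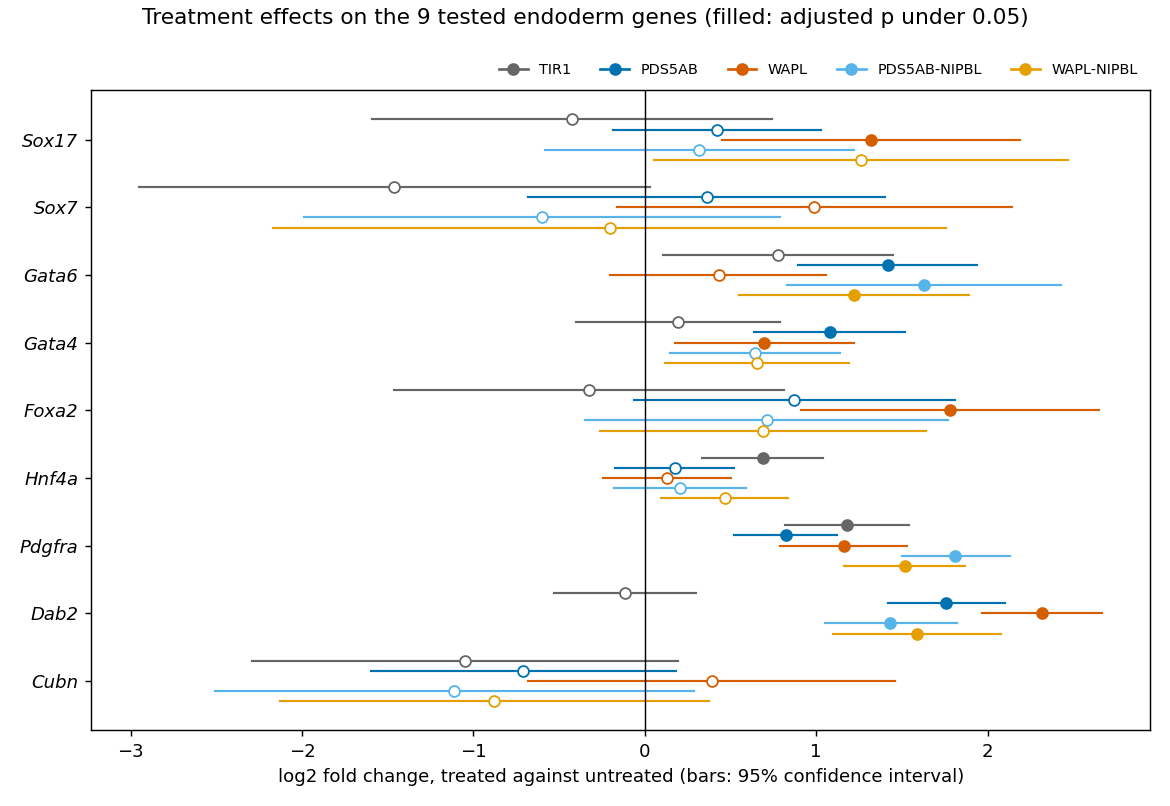
Log2 fold change of treated against untreated libraries on the horizontal axis for 9 tested genes, one colour per line, with 95% confidence intervals (3 libraries a group) and filled points where the adjusted p was under 0.05. Dab2 is filled in the 4 degron lines and open in TIR1, and Pdgfra is filled in all 5 lines.

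Dab2 (chr15:6299788-6440712, plus strand, GRCm38), a clathrin adaptor that couples cargo receptors to endocytosis in the visceral endoderm, had the highest group mean of the set, 5.29 FPKM in auxin-treated PDS5AB cells. In untreated PDS5AB cells its level was 12.8, 10.5 and 11.1 CPM in replicates 1 to 3, and with auxin 44.5, 34.2 and 37.9 CPM. WAPL cells went from 8.77, 5.57 and 6.81 CPM to 44.0, 29.8 and 32.5 CPM. Treated libraries lay above untreated ones in both lines, as for 29.6% of all genes in PDS5AB and 21.2% in WAPL cells. Both treated groups overlapped each other. With auxin and dTAG-13 Dab2 went from 4.41, 3.26 and 4.42 to 10.9, 8.99 and 12.9 CPM in PDS5AB-NIPBL cells. WAPL-NIPBL cells went from 1.52, 1.27 and 1.54 to 5.75, 3.83 and 3.63 CPM. Here too every treated library lay above every untreated one, from lower starting levels. TIR1 cells gave 3.38, 4.45 and 4.08 CPM without and 2.95, 3.84 and 4.10 CPM with auxin, ranges that overlap.

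The log2 rise of Dab2 was 1.76 (SE 0.165, adjusted p = 7.01e-10) in PDS5AB cells and 2.32 (SE 0.173, adjusted p = 1.22e-11) in WAPL cells, a 4.99-fold change. In PDS5AB-NIPBL cells it was 1.43 (SE 0.191, adjusted p = 1.77e-06), and for the WAPL-NIPBL line 1.59 (SE 0.238, adjusted p = 2.92e-05). In TIR1 cells the difference was -0.12 (95% interval -0.53 to 0.30, adjusted p = 0.741). The rise exceeded that of TIR1 in each degron line, by 1.88 for PDS5AB (adjusted p = 3.87e-06), 2.44 for WAPL (6.97e-08), 1.55 for PDS5AB-NIPBL (0.000392) and 1.71 for WAPL-NIPBL (0.000855). All 4 tests share the TIR1 libraries and their 2 sets. Between WAPL-NIPBL and WAPL cells the effect differed by -0.73 (95% interval -1.35 to -0.11, adjusted p = 0.186), and with the replicate number as a block by -0.76 (adjusted p = 0.00238). Untreated levels also differed between lines: against TIR1, Dab2 was higher by 1.53 in PDS5AB (adjusted p = 1.30e-07) and 0.84 in WAPL cells (0.00380), and lower by a log2 change of -1.46 in WAPL-NIPBL cells (3.67e-05). In the order of mean levels, treated PDS5AB (38.8 ± 5.22 CPM, SD, n = 3) and treated WAPL (35.4 ± 7.52) overlapped and stood above the rest, and untreated WAPL-NIPBL (1.44 ± 0.149) stood below all others. A gene on the opposite strand, Gm18888, shares exon sequence with Dab2, and counting ignored strand.

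The windows before the start sites of Dab2, whose rise in WAPL cells was the largest treatment effect called among the 9 tested members, and of Pdgfra, which rose in every line, are shown for the letters they hold. Of the members, 6 have windows in the RefSeq promoter table (GRCm38.p6), with 10 start sites. The printed stretches end before the first annotated exon, at chr15:6299539-6299787 and chr15:6386498-6386597 for both Dab2 starts and chr5:75152001-75152250 for Pdgfra, all on the plus strand. Capitals mark GATAA or its reverse TTATC, the core bound by GATA factors.
Dab2, first start: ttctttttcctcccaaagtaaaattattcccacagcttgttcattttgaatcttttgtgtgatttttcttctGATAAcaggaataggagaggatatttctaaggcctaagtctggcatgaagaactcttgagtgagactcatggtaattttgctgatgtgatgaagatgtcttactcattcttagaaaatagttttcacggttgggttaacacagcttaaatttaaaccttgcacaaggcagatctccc
Dab2, second start: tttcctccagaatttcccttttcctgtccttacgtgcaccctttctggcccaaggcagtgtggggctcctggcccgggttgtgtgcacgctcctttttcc
Pdgfra: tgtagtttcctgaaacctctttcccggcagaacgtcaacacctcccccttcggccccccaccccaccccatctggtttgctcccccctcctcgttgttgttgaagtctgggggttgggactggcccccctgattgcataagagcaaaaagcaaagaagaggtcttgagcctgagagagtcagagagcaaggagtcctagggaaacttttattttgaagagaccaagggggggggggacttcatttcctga
GATAA, searched on both strands, was found in the first Dab2 window and in neither other window. Over the 250 bases before each start it was in 3 of 10 member windows, where 22.6% of 32841 windows of that length hold it. ACAAT, the core of SOX sites, was in 1 of 10 against 27.7% of all windows, and TGTTTAC, a FOX site, in 0 of 10 against 3.17%. These are matches of letters, and which start the transcripts used was not measured.

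Pdgfra (chr5:75152292-75198215, plus strand), the receptor for platelet-derived growth factor that marks the primitive endoderm, was the member called in all 5 lines. TIR1 cells went from 2.35, 1.45 and 2.23 CPM to 5.87, 3.44 and 4.63 CPM, and WAPL cells from 1.76, 1.73 and 1.73 to 3.83, 3.49 and 4.35 CPM. PDS5AB cells, already higher untreated at 5.73, 7.60 and 7.17 CPM, reached 11.3, 11.3 and 13.7 CPM. PDS5AB-NIPBL cells went from 4.95, 4.40 and 5.18 to 16.6, 16.6 and 18.0 CPM. WAPL-NIPBL cells went from 2.37, 1.97 and 2.34 to 6.23, 5.91 and 6.94 CPM. In no line did treated and untreated libraries overlap, and the treated PDS5AB-NIPBL libraries were the highest of the series.

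In log2, TIR1 cells rose by 1.18 (SE 0.176, adjusted p = 1.65e-05), across the library sets. The rise was 0.82 (SE 0.147, adjusted p = 3.24e-05) for PDS5AB and 1.16 (SE 0.182, 9.47e-06) for WAPL cells. It was 1.81 (SE 0.153, 5.90e-10) for PDS5AB-NIPBL and 1.52 (SE 0.173, 4.39e-07) for WAPL-NIPBL cells. No degron line's rise differed from that of TIR1 past the threshold: the differences were -0.36 for PDS5AB (95% interval -0.82 to 0.11), -0.02 for WAPL (-0.55 to 0.51), 0.63 for PDS5AB-NIPBL (0.15 to 1.11, adjusted p = 0.0852) and 0.34 for WAPL-NIPBL (-0.17 to 0.85). The PDS5AB-NIPBL value was called without untreated TIR1 replicate 2 (0.81, adjusted p = 0.0307) or auxin-treated TIR1 replicate 1 (0.83, adjusted p = 0.0199). It was also called with the replicate number as a block (0.61, adjusted p = 0.00952), although the numbers do not pair the TIR1 samples. The rise in PDS5AB-NIPBL cells exceeded that in PDS5AB cells by 0.99 (95% interval 0.56 to 1.42, adjusted p = 0.00269). Each effect lies within a library set, and the sets of both lines differ. Kit, the nearest tested gene to the right at 423 kb and a receptor of the same family, also rose in TIR1 cells, by 0.43 (adjusted p = 0.00182). In the degron lines it did not follow: it fell by 0.92 (7.16e-09), 0.54 (5.72e-05), 0.40 (0.00307) and 0.33 (0.0274), in the order PDS5AB, WAPL, PDS5AB-NIPBL, WAPL-NIPBL. For Kit the WAPL-NIPBL call was lost without any 1 of 5 libraries, untreated replicates 1 (-0.35, 0.0511), 2 (-0.29, 0.114) and 3 (-0.35, 0.0530) and treated replicates 1 (-0.29, 0.115) and 2 (-0.33, 0.0708). Gm42802 and Gm42803, opposite in strand, and Mir7025 share exon sequence with Pdgfra.

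**Figure D3:**
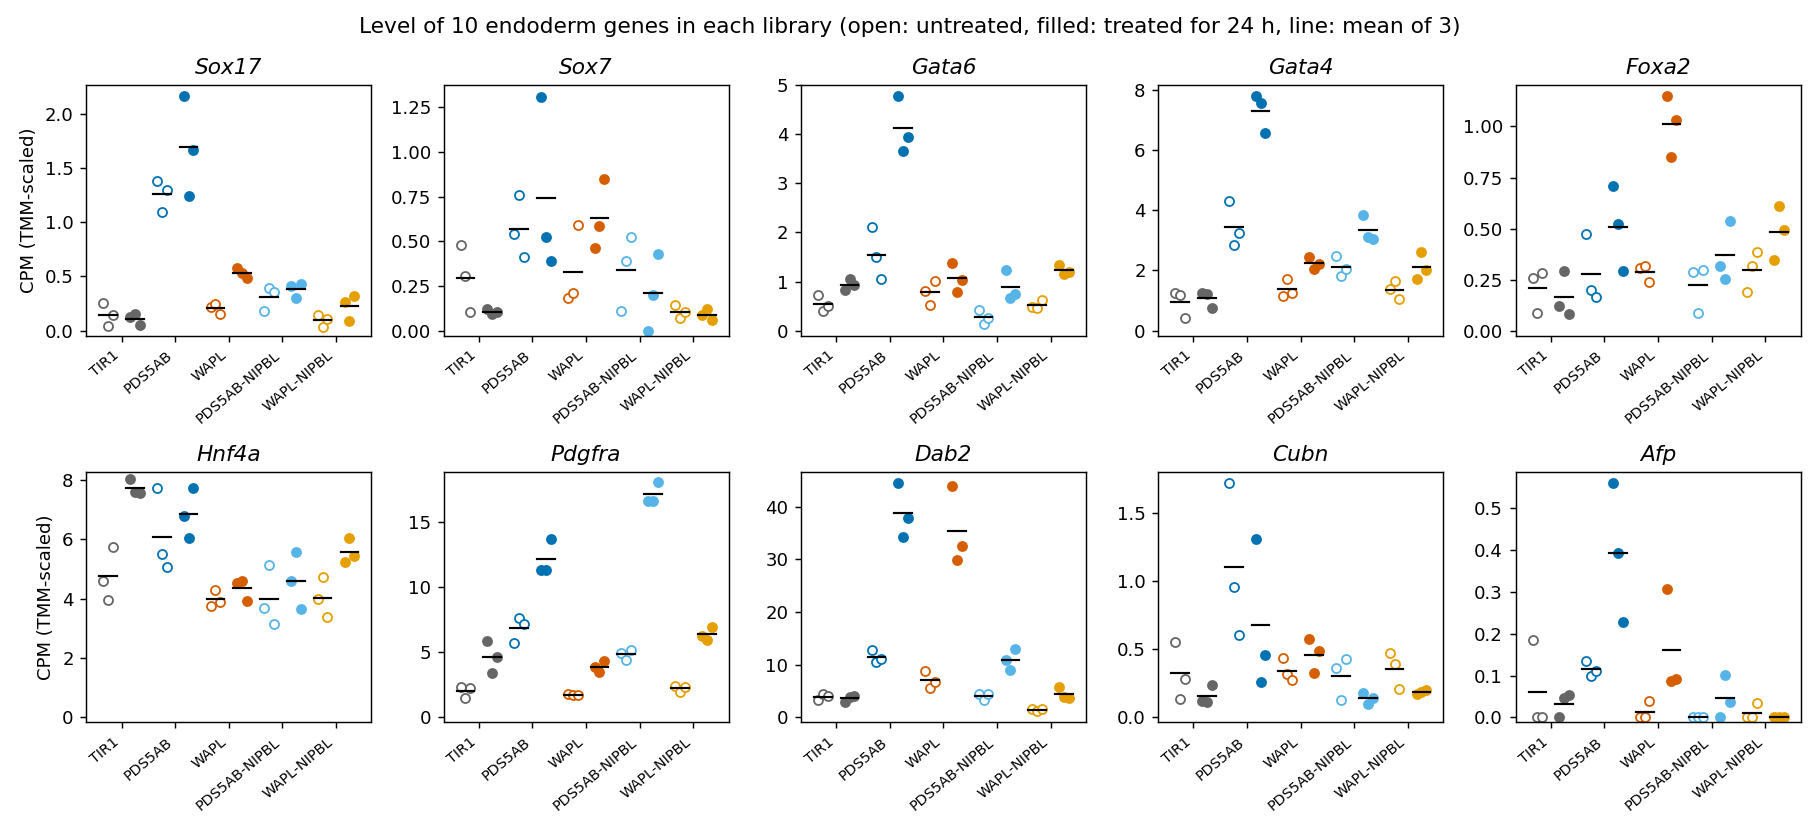
TMM-scaled CPM of each gene in each library, open for untreated and filled for 24 h of treatment, with black lines at the means of 3. Dab2 means go from 7.05 to 35.4 in WAPL cells and from 3.97 to 3.63 in TIR1 cells, and Sox17 is above 1 CPM in all PDS5AB libraries and in none of the other lines.

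GATA6 and GATA4 are zinc-finger factors, GATA6 acting first in primitive endoderm. Gata6 (chr18:11052064-11085635) went from 2.12, 1.49 and 1.05 to 4.77, 3.66 and 3.95 CPM in PDS5AB cells. It went from 0.430, 0.131 and 0.262 to 1.23, 0.657 and 0.752 CPM in PDS5AB-NIPBL cells, and from 0.474, 0.458 and 0.629 to 1.34, 1.16 and 1.19 CPM in WAPL-NIPBL cells. Treated libraries lay above untreated ones in all 3 lines, as for 29.6%, 17.7% and 14.4% of all genes. The treated PDS5AB libraries lay above all others. The log2 rises were 1.42 (SE 0.255, adjusted p = 3.61e-05), 1.63 (SE 0.390, 0.00292) and 1.22 (SE 0.329, 0.0158). The last did not pass without untreated WAPL-NIPBL replicate 1 (1.17, adjusted p = 0.0597) or 2 (1.13, 0.0729). WAPL cells overlapped at 0.803, 0.529 and 1.02 against 1.38, 0.792 and 1.03 CPM, a difference of 0.43 (adjusted p = 0.31). TIR1 cells went from 0.735, 0.396 and 0.496 to 0.821, 1.06 and 0.925 CPM, treated above untreated as for 20.4% of all genes. The difference was 0.78 (adjusted p = 0.0942) across the library sets. No difference of a degron line's effect from the TIR1 effect was called, the 4 lying between -0.35 and 0.85 (lowest adjusted p 0.28). 1010001N08Rik, on the opposite strand, shares exon sequence with Gata6.

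Gata4 (chr14:63198922-63271692, minus strand) went from 4.32, 2.84 and 3.23 to 7.80, 7.58 and 6.56 CPM in PDS5AB cells, a log2 rise of 1.08 (SE 0.216, adjusted p = 0.000138). In WAPL cells it went from 1.14, 1.73 and 1.26 to 2.45, 2.05 and 2.21 CPM, a rise of 0.70 (SE 0.256, adjusted p = 0.0352). It missed the threshold without untreated WAPL replicate 1 (0.57, adjusted p = 0.149) or 3 (0.64, 0.0985), or treated replicate 1 (0.63, 0.0894) or 3 (0.71, 0.0689). PDS5AB-NIPBL cells went from 2.47, 1.83 and 2.06 to 3.83, 3.13 and 3.04 CPM and WAPL-NIPBL cells from 1.37, 1.66 and 1.05 to 1.73, 2.60 and 2.03 CPM. Treated libraries lay above untreated ones in all 4 lines, as for 29.6%, 21.2%, 17.7% and 14.4% of all genes. The differences in both NIPBL-FKBP lines, 0.64 (adjusted p = 0.0606) and 0.65 (adjusted p = 0.127), were called with the replicate number as a block (0.65, adjusted p = 0.00617, and 0.66, adjusted p = 0.0183). The PDS5AB-NIPBL value was also called by DESeq2 (0.65, adjusted p = 0.0312) and by edgeR on the compared groups alone (0.64, adjusted p = 0.0431). The WAPL-NIPBL value was called by neither. TIR1 libraries overlapped at 1.25, 1.19 and 0.425 against 1.25, 1.22 and 0.767 CPM. The PDS5AB effect exceeded the TIR1 effect by 0.89 (adjusted p = 0.0716), and by 1.26 (0.00568) without untreated TIR1 replicate 3, the lowest library, or 1.07 (0.0328) without untreated PDS5AB replicate 1. DESeq2 (0.88, adjusted p = 0.047) and the replicate block (0.88, adjusted p = 0.0133) called this difference too, although the numbers do not pair the TIR1 samples.

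SOX17 and SOX7 belong to the SoxF group of HMG-box factors. Sox17 (chr1:4490931-4497354, minus strand) separated the PDS5AB line from the rest before any treatment: 1.38, 1.09 and 1.3 CPM against 0.257, 0.044 and 0.142 CPM in untreated TIR1 cells, a log2 difference of 3.01 (SE 0.417, adjusted p = 1.06e-06). Auxin left PDS5AB libraries at 2.16, 1.24 and 1.67 CPM, overlapping the untreated ones (0.42, 95% interval -0.19 to 1.03). In WAPL cells it went from 0.216, 0.247 and 0.157 to 0.575, 0.528 and 0.484 CPM, a rise of 1.32 (SE 0.426, adjusted p = 0.0167). Counts were 7, 7 and 4 against 15, 18 and 16, and without untreated WAPL replicate 3 the call was lost (1.18, adjusted p = 0.0647). WAPL-NIPBL cells differed by 1.26 (adjusted p = 0.213) on 20 fragments against 7. Gm37587, on the opposite strand, shares exon sequence with Sox17. Sox7 (chr14:63943673-63950732, plus strand), with 299 fragments in all, was called in no treatment effect. In TIR1 cells, across the library sets, Sox7 differed by -1.46 (adjusted p = 0.163) on 12 treated against 23 untreated fragments. In WAPL cells it differed by 0.99 (adjusted p = 0.188) on 60 against 27, and in both lines the libraries overlapped. The WAPL effect exceeded this TIR1 effect by 2.45 (adjusted p = 0.0572), and by 2.87 (0.0279) without untreated TIR1 replicate 3 or 3.13 (0.0228) without untreated WAPL replicate 3. DESeq2, a fit of the compared groups alone, a fit without the filter and the replicate block called that difference too.

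Foxa2 (chr2:148042877-148046969, minus strand), a forkhead factor of node, gut and visceral endoderm, rose in WAPL cells only among the called effects, from 0.309, 0.317 and 0.236 to 1.15, 0.851 and 1.03 CPM. These were 10, 9 and 6 fragments against 30, 29 and 34. The rise of 1.78 (SE 0.426, adjusted p = 0.00152) exceeded the TIR1 effect by 2.11 (95% interval 0.65 to 3.56, adjusted p = 0.0340). Leaving out any of 7 libraries ended that call: untreated TIR1 replicate 1 (1.96, adjusted p = 0.0969) or 3 (1.84, 0.121), treated TIR1 replicate 1 (1.94, 0.0709) or 3 (1.78, 0.0889), untreated WAPL replicate 3 (1.99, 0.0647), treated WAPL replicate 1 (2.01, 0.0571) or 3 (2.09, 0.0517). The difference from the WAPL effect was -1.09 in WAPL-NIPBL cells (95% interval -2.41 to 0.22). In PDS5AB cells Foxa2 differed by 0.87 (adjusted p = 0.121), and by 1.46 (0.0256) without untreated replicate 1. Thbd, the gene for thrombomodulin and the only tested gene within 500 kb of Foxa2, rose in WAPL cells by 1.44 (adjusted p = 0.0103) and in PDS5AB cells by 0.95 (adjusted p = 0.0385), on a mean of 13 fragments. The WAPL value of Thbd was not called without untreated replicate 1 (1.17, 0.0710) or 3 (1.24, 0.0531), and the PDS5AB value not without untreated replicate 3 (0.62, 0.215) or treated replicate 1 (0.86, 0.104) or 2 (0.79, 0.139).

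Hnf4a (chr2:163506808-163572910, plus strand), the nuclear receptor of visceral endoderm and liver, moved in the control line. TIR1 cells went from 4.59, 3.96 and 5.74 to 8.03, 7.58 and 7.56 CPM, a rise of 0.69 (SE 0.173, adjusted p = 0.00498) that crosses the library sets. WAPL-NIPBL cells went from 3.98, 4.72 and 3.39 to 5.23, 6.03 and 5.43 CPM, treated above untreated as for 14.4% of all genes. The difference of 0.47 (adjusted p = 0.113) was called with the replicate block (0.48, adjusted p = 0.0137). PDS5AB, WAPL and PDS5AB-NIPBL libraries overlapped, with differences of 0.17, 0.13 and 0.21. All 10 groups lay between 3.98 and 7.72 CPM on average, and every pair of neighbours in the order of levels overlapped. Set against the TIR1 effect, the effects in PDS5AB and WAPL cells were lower by log2 values of -0.52 (adjusted p = 0.12) and -0.56 (0.117), neither called. With the replicate block both were called (-0.51, adjusted p = 0.0249, and -0.57, 0.0211), although the numbers do not pair the TIR1 samples.

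CUBN, the receptor whose uptake of vitamin B12 complexes and lipoproteins uses DAB2, was called in no treatment effect. Its gene (chr2:13276338-13491813, minus strand) had 355 fragments in all. PDS5AB cells gave 1.72, 0.959 and 0.607 CPM untreated and 1.31, 0.261 and 0.457 CPM treated, which overlap (-0.71, adjusted p = 0.189). Treated replicate 1 stood apart, and without it the difference was called at -1.58 (adjusted p = 0.00815). Gm13270, on the opposite strand, shares exon sequence with Cubn. In WAPL-NIPBL cells the treated libraries, at 0.173, 0.184 and 0.203 CPM, lay below the untreated 0.474, 0.388 and 0.210 CPM, as did 12.6% of all genes (-0.88, adjusted p = 0.461). Afp, the fetal serum protein of yolk sac and liver, was left out by the filter. Its counts were 4, 3 and 4 against 15, 12 and 7 in PDS5AB cells and 0, 0 and 1 against 8, 3 and 3 in WAPL cells. The summed counts give ratios of 3.38 (95% interval 1.67 to 7.38, counting error only) and 12.9 (1.97 to 547). It had no fragment in untreated PDS5AB-NIPBL or treated WAPL-NIPBL cells. Without the filter the WAPL difference passed the threshold (adjusted p = 0.0358) and the PDS5AB difference did not (0.0863).

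Members also differed between untreated lines. In PDS5AB cells, whose library numbers are in the same set as those of untreated TIR1, 6 of 9 members were higher, against 15.5% of all genes. They were Sox17, Gata6 (1.48, adjusted p = 0.000440), Gata4 (1.87, 1.41e-06), Pdgfra (1.75, 2.30e-09), Dab2 and Cubn (1.71, 0.00713). The Cubn call was lost without untreated PDS5AB replicate 1 (1.23, adjusted p = 0.0752). In WAPL cells 1 of 9, Dab2, was higher, against 6.62% of all genes. In PDS5AB-NIPBL cells 2 of 9 were higher, against 16.5%: Gata4 by 1.17 (adjusted p = 0.00150) and Pdgfra by 1.25 (2.50e-06). In WAPL-NIPBL cells 0 of 9 were higher against 13.4% of all genes, also by DESeq2 and at an unadjusted p under 0.05, and 1 of 9, Dab2, was lower against 14.6%. Gata6 was lower in untreated PDS5AB-NIPBL cells by a log2 change of -1.41 (adjusted p = 0.0284) without their replicate 1. With it the value of -0.95 missed the threshold (0.0738). Sox17 there was 0.99 higher (0.133), and 1.62 (0.0475) without untreated TIR1 replicate 1.

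The tests of effects against each other called few members. Against the TIR1 effect, 1 of 9 was larger in PDS5AB cells (Dab2) where 13.9% of all genes were, 2 of 9 in WAPL cells (Dab2 and Foxa2) against 9.86%, 1 of 9 in PDS5AB-NIPBL cells (Dab2) against 5.28% and 1 of 9 in WAPL-NIPBL cells (Dab2) against 3.1%. Sox17 in WAPL cells exceeded it by 1.74 (adjusted p = 0.0882), or 2.12 (0.0375) without untreated TIR1 replicate 2. The PDS5AB-NIPBL effect exceeded the PDS5AB effect for 1 of 9, Pdgfra, against 4.97% of all genes. Between WAPL-NIPBL and WAPL cells 0 of 9 effects differed in either direction by edgeR without the replicate block or by DESeq2, where 3.03% of all genes were called higher and 2.16% lower. At an unadjusted p under 0.05, 1 was lower, Dab2. With the replicate block, in lines where the numbers pair the samples, edgeR called it (-0.76, adjusted p = 0.00238), and it did so without the filter on low counts (-0.73, 0.0405).

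Other endoderm genes were taken from lists, whose counts stand against the shares of all genes called higher and lower: 10.4% and 9.59% for TIR1, 25.8% and 20.2% for PDS5AB, 17% and 15.8% for WAPL, 11.4% and 8.06% for PDS5AB-NIPBL, and 5.11% and 3.45% for WAPL-NIPBL. Among visceral endoderm and yolk sac genes, 11 of 17 were tested and 6 rose and 2 fell in PDS5AB cells (median log2 change 0.95, all genes 0.04), led by the CUBN partner Lrp2 (1.14, adjusted p = 1.10e-05) and Cited1 (1.08, 1.30e-05). In WAPL cells 2 rose, Lrp2 by 0.98 (0.000166), and 2 fell, Cited1 by a log2 change of -1.13 (2.35e-05). In PDS5AB-NIPBL cells 1 rose, Lrp2 by 0.59 (0.0316). It missed the threshold without untreated replicate 1 (0.51, adjusted p = 0.119) or 2 (0.50, 0.122) or treated replicate 3 (0.37, 0.261). In WAPL-NIPBL cells 0 of 11 were called by edgeR, with 1 higher and 0 lower at an unadjusted p under 0.05. In TIR1 cells 3 fell and 0 rose (0 higher at an unadjusted p under 0.05).

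Parietal endoderm and basement membrane genes, all 12 tested, were called in both directions: 7 higher and 3 lower for PDS5AB, 6 and 4 for WAPL, 6 and 2 for PDS5AB-NIPBL, 5 and 0 for WAPL-NIPBL (2 lower at an unadjusted p under 0.05) and 2 and 3 in TIR1 cells. Plat, the plasminogen activator secreted by parietal endoderm, rose in the 4 degron lines by 1.96 (adjusted p = 2.35e-08), 2.18 (2.12e-08), 1.75 (1.07e-05) and 1.17 (0.00746). Srgn, a proteoglycan core protein, rose by 2.36 (1.79e-06) in the PDS5AB-NIPBL line, by 1.44 (0.000630) in the WAPL-NIPBL line and by 1.40 (0.000196) in the PDS5AB line. It also rose in TIR1 cells by 0.76 (0.0424), which was not called without any 1 of untreated replicates 1 (0.81, 0.0765), 2 (0.87, 0.0606) and 3 (0.62, 0.161) or treated replicates 1 (0.75, 0.0931) and 3 (0.70, 0.112). Fst, the activin antagonist, fell by 1.55 in PDS5AB (5.07e-09), 1.95 in WAPL (1.84e-10) and 1.46 in PDS5AB-NIPBL cells (4.05e-07). The collagen gene Col4a1 fell by 1.23 (3.75e-06) in TIR1 cells and rose in the degron lines, by 1.30 (7.11e-08, PDS5AB), 0.65 (0.00160, WAPL), 0.78 (0.000703, PDS5AB-NIPBL) and 0.53 (0.0271, WAPL-NIPBL). The summed level of this list stayed between 1800 and 2770 CPM in all libraries.

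Definitive endoderm and mesendoderm genes, 9 of 11 tested, were 6 higher and 1 lower in PDS5AB cells, 1 and 2 in WAPL, 1 and 1 in PDS5AB-NIPBL and 1 and 1 in TIR1 cells. In WAPL-NIPBL cells edgeR called 0, with 1 higher and 1 lower at an unadjusted p under 0.05. Eomes, a T-box factor, fell by 0.62 (adjusted p = 0.00177) in PDS5AB and 0.80 (0.000538) in PDS5AB-NIPBL cells. The first value was lost without untreated PDS5AB replicate 1 (-0.34, adjusted p = 0.0597). Gsc, a homeobox gene of the organizer, fell by 1.14 (1.88e-05) in WAPL cells and rose by 0.67 (0.00542) in TIR1 cells, while Hhex rose by 0.78 (9.16e-06) in PDS5AB-NIPBL cells. Cxcr4 rose by 0.57 (0.00698) in PDS5AB cells, and by 0.45 (0.0532) without treated replicate 1. Foxa1, the paralogue of Foxa2, rose by 2.87 (2.46e-09) in PDS5AB cells, and was named after its value was seen. It is in the list of paralogues as well.

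The FGF receptor genes Fgfr1 and Fgfr2 act upstream of primitive endoderm. Fgfr1 rose by 0.81 (adjusted p = 8.27e-08) in PDS5AB, 0.97 (5.89e-09) in WAPL cells, by 0.63 (2.27e-05) in the PDS5AB-NIPBL line and by 0.45 (0.00296) in the WAPL-NIPBL line. Fgfr2 rose by 1.12 (2.47e-06) in PDS5AB, 1.02 (2.53e-05) in WAPL and 0.90 (0.000381) in PDS5AB-NIPBL cells, and differed by 0.57 (0.0583) in WAPL-NIPBL cells. Of the 8 FGF and PDGF genes, all tested, 3 rose and 1 fell, 4 and 2, 4 and 2, and 2 and 1 in those 4 lines, and in TIR1 cells 1 rose. That gene was Sos1, a RAS exchange factor (0.31, adjusted p = 0.0198), not called without untreated replicate 2 (0.29, 0.0804) or 3 (0.28, 0.0750) or treated replicate 1 (0.30, 0.0662). Pdgfc, a ligand of PDGFRA, rose by 0.33 (0.00444) for PDS5AB, 0.36 (0.00231) for WAPL, 0.50 (0.000187) for PDS5AB-NIPBL and 0.35 (0.01) for WAPL-NIPBL. The last was not called without untreated replicate 2 (0.32, 0.0574) or treated replicate 1 (0.32, 0.0507). Among paralogues of the members, 6 of 10 tested, 1 rose and 2 fell in TIR1, 4 and 1 in PDS5AB and 1 and 2 in WAPL cells. In each NIPBL-FKBP line edgeR called 0 higher and 1 lower, with 1 (PDS5AB-NIPBL) and 2 (WAPL-NIPBL) higher at an unadjusted p under 0.05. Dab1, the neuronal relative of Dab2, fell in all 5 lines by 1.83 (1.08e-07, TIR1), 1.11 (2.25e-06, PDS5AB), 1.14 (3.70e-05, WAPL), 0.87 (0.000337, PDS5AB-NIPBL) and 1.10 (0.000544, WAPL-NIPBL). In TIR1 cells, where Dab1 fell most, Dab2 was not called. Pdgfrb rose by 0.66 (0.00273) in TIR1 and 0.94 (7.50e-06) in PDS5AB cells.

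**Figure D4:**
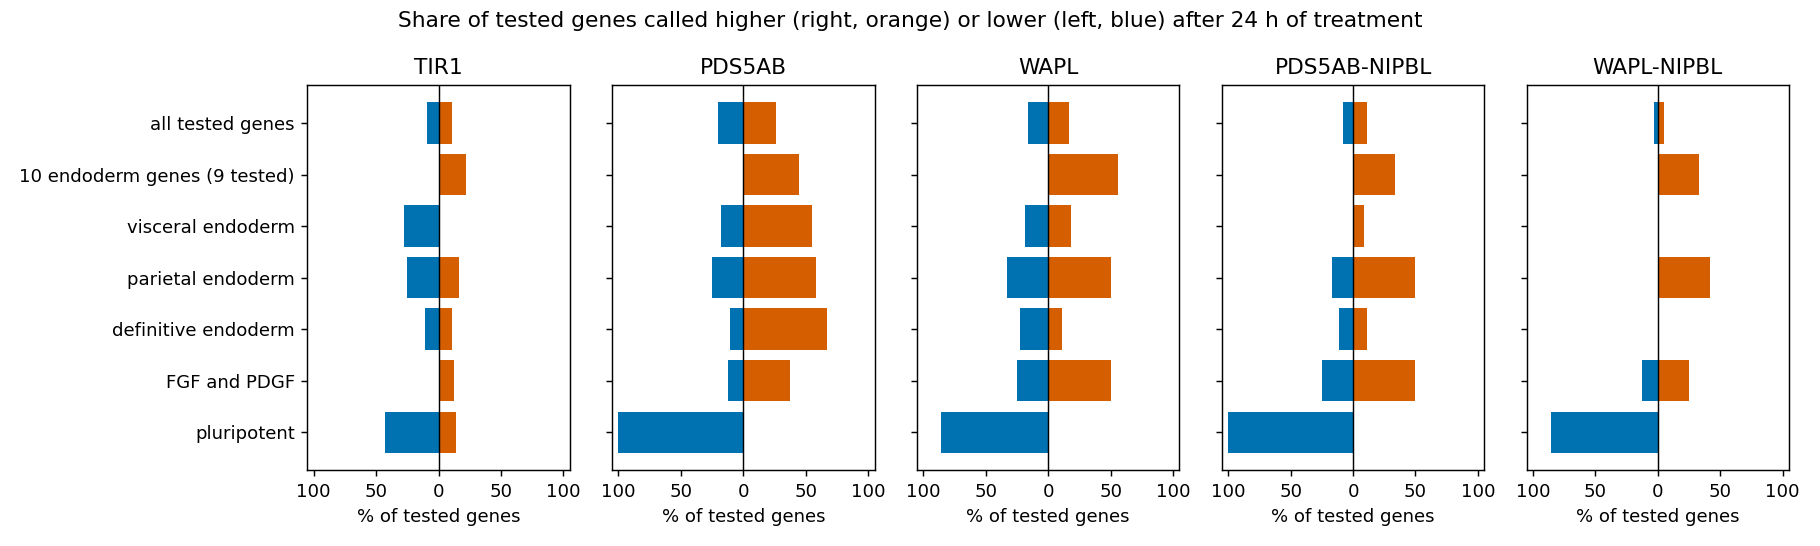
Percent of tested genes called higher (right) or lower (left) at an adjusted p under 0.05 in each line, for all 19868 tested genes, the 9 tested members and 5 gene lists. The members reach the right side in all 5 lines and so do the pluripotency genes on the left side, with 3 of 7 in TIR1 cells and 6 or 7 of 7 in the degron lines.

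Pluripotency genes fell alongside. Of 7 tested, 7 fell in both PDS5AB and PDS5AB-NIPBL cells and 6 in both WAPL and WAPL-NIPBL cells. In TIR1 cells 3 fell and 1 rose. Sox2 fell by 1.29 (adjusted p = 1.49e-13) in PDS5AB and 1.02 (2.15e-11) in WAPL cells. Zfp42 fell by 1.30 (adjusted p = 3.47e-14) in PDS5AB cells and Klf4 by 1.17 (3.64e-10) in WAPL cells, while Klf4 rose by 0.57 (0.000151) in TIR1 cells.

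Markers of other cell types had summed levels of 7.48 to 16.4 CPM for 5 trophoblast genes, 1.19 to 18.9 CPM for 5 mesoderm genes, 58.9 to 128 CPM for 4 neural genes and 4.29 to 21.5 CPM for 5 fibroblast genes. Some moved in either direction. The trophoblast gene Cdx2 rose by 2.78 (9.32e-10) in TIR1 cells, where Pdgfra and Hnf4a rose, and Ascl2, of the same list, fell by 0.59 (0.0225). Ascl2 was not called without untreated replicate 1 (-0.44, adjusted p = 0.143) or treated replicate 3 (-0.46, 0.131). In PDS5AB-NIPBL cells Cdx2 rose by 0.69 (0.0111) and Ascl2 fell by 0.62 (0.0186). Neither was called without treated replicate 3 there (Cdx2 0.52, adjusted p = 0.0983, and Ascl2 -0.32, 0.212), Cdx2 also not without untreated replicate 2 (0.53, 0.0804), and Ascl2 also not without untreated replicate 1 (-0.48, 0.118). The mesoderm gene T rose by 2.02 (1.91e-07) in TIR1, 1.48 (1.95e-07) in WAPL and 0.82 (0.00117) in WAPL-NIPBL cells. In PDS5AB-NIPBL cells T rose by 0.59 (0.0150), and was not called without untreated replicate 1 (0.46, 0.0997) or treated replicate 1 (0.51, 0.0787) or 3 (0.54, 0.0591). The neural gene Sox1 fell in the 4 degron lines by 0.98 (4.62e-06, PDS5AB), 1.33 (6.62e-08, WAPL), 1.13 (1.35e-05, PDS5AB-NIPBL) and 0.91 (0.000378, WAPL-NIPBL). It fell by 0.48 (0.0218) in TIR1 cells, a call lost without untreated replicate 1 (-0.31, 0.194) or treated replicate 1 (-0.46, 0.0693) or 3 (-0.42, 0.0986). Nes, the intermediate filament nestin of neural progenitors, rose by 0.61 (7.81e-05) in PDS5AB and 0.72 (3.63e-05) in PDS5AB-NIPBL cells. Of the fibroblast genes, Thy1 fell by 1.78 (8.01e-07) and Col1a1 by 1.39 (1.33e-06) in WAPL cells, and Col1a1 rose by 1.02 (4.95e-05) in PDS5AB and 0.81 (0.00277) in PDS5AB-NIPBL cells. Thy1 also fell in TIR1 cells, by a log2 change of -0.82 (0.00302), and by 0.92 (0.00888) in WAPL-NIPBL and 0.63 (0.0486) in PDS5AB-NIPBL cells. For WAPL-NIPBL the Thy1 call was lost without untreated replicate 3 (-0.73, adjusted p = 0.0924) or treated replicate 1 (-0.69, 0.0687). For PDS5AB-NIPBL it was lost without untreated replicate 2 (-0.62, 0.0902) or 3 (-0.45, 0.257), or treated replicate 1 (-0.40, 0.283) or 3 (-0.71, 0.0715).

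The other called markers averaged under 20 fragments a library and were named after their values were seen. The neural gene Pax6 rose by 3.22 (adjusted p = 2.06e-06) in WAPL cells, where the trophoblast gene Gata3 fell by 1.32 (0.00796) and the fibroblast gene Col1a2 by 1.67 (0.00249). Gata3 was not called without untreated replicate 3 (-1.04, 0.0625). The mesoderm gene Mesp1, at 4.07 fragments a library, rose by 1.90 (0.0452) in WAPL cells, and was not called without untreated replicate 1 (1.51, 0.174), 2 (2.30, 0.0546) or 3 (1.98, 0.0836) or treated replicate 1 (1.42, 0.195) or 3 (2.07, 0.0527). Col1a2 rose by 1.04 (0.00888) in PDS5AB cells, and was not called without untreated replicate 3 (0.77, 0.0724). The mesoderm gene Evx1 fell by 1.57 (0.00292) in PDS5AB cells, a call lost without untreated replicate 1 (-1.04, 0.0587). Evx1 also fell by 3.47 (0.0394) in WAPL-NIPBL cells, a call lost without untreated replicate 1 (-3.55, 0.0654) or 3 (-3.04, 0.176) or treated replicate 1 (-3.15, 0.107), 2 (-2.98, 0.142) or 3 (-5.30, 0.0543). The part of all these markers in the members' changes was not tested.

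Genes near the members were called in both directions. Of 65 tested genes with a start within 500 kb of a member's start, 10.8% were higher and 16.9% lower in TIR1, 18.5% and 24.6% for PDS5AB, 16.9% and 20% for WAPL, 10.8% and 15.4% for PDS5AB-NIPBL, and 1.54% and 9.23% for WAPL-NIPBL cells. Of all genes, 10.4% and 9.59% were called higher and lower in TIR1, 25.8% and 20.2% in PDS5AB and 17% and 15.8% in WAPL cells. The shares were 11.4% and 8.06% in PDS5AB-NIPBL and 5.11% and 3.45% in WAPL-NIPBL cells. Of 16 tested genes nearest to a member on either side, 8 average under 20 fragments a library. How many of all genes were called in no line was not counted. Of the 16, 7 were not called in any line, with log2 differences between -0.91 and 0.82 (lowest unadjusted p 0.0919): Gm8047 and Fyb by Dab2, at 8.27 and 10.5 fragments a library, Gm7357 by Sox17, Neil2 by Gata4, Gm19583 by Pdgfra, Trdmt1 by Cubn and Rassf6 by Afp.

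The other 9 include Kit and Thbd, described above. Rsu1, by Cubn, fell by 0.41 (adjusted p = 0.00113) in TIR1, 0.44 (0.000138) in PDS5AB and 0.56 (9.26e-06) in WAPL cells. Pinx1, by Sox7, fell by 0.71 (3.55e-06) in PDS5AB cells. Mib1, by Gata6, rose by 0.44 (0.00366) in TIR1 and 0.28 (0.0330) in PDS5AB cells, the latter not called without untreated replicate 1 (0.25, 0.0915) or 2 (0.28, 0.0693) or treated replicate 1 (0.25, 0.0891) or 2 (0.27, 0.0704). By Hnf4a, Ttpal rose by 0.55 (7.05e-05) in PDS5AB and 0.35 (0.0171) in PDS5AB-NIPBL cells, the latter not called without untreated replicate 1 (0.29, 0.0985) or 2 (0.31, 0.0701) or treated replicate 1 (0.34, 0.0544) or 3 (0.28, 0.110). On its other side R3hdml, at 15.5 fragments a library, fell by 0.93 (0.00920) in PDS5AB cells, not called without untreated replicate 1 (-0.73, 0.0651). R3hdml also fell by 1.27 (0.0235) in TIR1 cells, not called without untreated replicate 2 (-1.17, 0.0813) or 3 (-1.21, 0.0675) or treated replicate 1 (-1.06, 0.0982) or 3 (-1.22, 0.0671). Gm5463, by Gata4, rose by 1.07 (0.0348) in PDS5AB cells on 12 fragments a library, and was not called without untreated replicate 1 (1.05, 0.0738), 2 (1.11, 0.0648) or 3 (1.05, 0.0809) or treated replicate 1 (1.05, 0.0671) or 2 (0.96, 0.103). Gm9958, by Afp, rose by 0.82 (0.0266) in WAPL cells, and was not called without untreated replicate 2 (0.70, 0.105) or 3 (0.85, 0.0532) or treated replicate 1 (0.57, 0.164) or 3 (0.77, 0.0799).

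Across 30 libraries, which share lines and sets, the genes most like Dab2 in log2 CPM were Tbx4 (Pearson's r = 0.974), Wnt8a (0.961) and Xpnpep2 (0.939). Eif4e3 (0.947), Dll1 (0.943) and Ptpru (0.930) were most like Gata4, and Gpx8 (0.932), Mapkapk3 (0.913) and Rhof (0.907) most like Pdgfra. Msrb3 (0.907), Sp9 (0.891) and Arhgef16 (0.889) were most like Gata6, and Cfap77 (0.745), Oasl2 (0.715) and Wnt11 (0.713) most like Hnf4a. The order depended on the measure: by Spearman's rho Oasl2 ranked 71 for Hnf4a, and over group means Cfap77 ranked 40. Among the 9 tested members themselves, r over the 36 pairs ran from -0.12 (Foxa2 and Hnf4a) to 0.80 (Sox17 and Gata4), with a median of 0.42.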

How the data were processed

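RNA from 30 libraries of mouse embryonic stem cells in 10 groups of 3 was analysed. Per the file headers, the authors deposited unnormalised fragment counts for each gene, made with featureCounts 2.0.1 in paired-end mode without a strand or multi-mapping option on GENCODE vM23 gene models (GRCm38). The submitters' processing notes name cutadapt, STAR 2.7.7a and deepTools. Counting without strand adds antisense reads, and fragments shared by several genes were not counted. Gene lengths in the deposited table, another measure, gave FPKM. The members and lists were chosen with earlier results of these data known. Symbols were matched for 55154 of 55421 identifiers (99.5%).

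Counts were tested with edgeR 4.0.16 in R 4.3.3: filterByExpr with a minimum count of 10 (19868 genes kept), TMM scaling (factors 0.95 to 1.13), 1 mean per group over all 30 libraries (20 residual degrees of freedom), the quasi-likelihood F-test and Benjamini-Hochberg adjustment over all genes kept, called at an adjusted p under 0.05. The method was tested on simulated data. CPM are TMM-scaled. Standard errors come from the F statistic. Named genes are the members, the 2 called genes per list and effect with the largest change and a mean of at least 50 counts, the 3 genes most correlated with each member of at least 1 CPM, and the nearest tested gene on either side of a member within 500 kb. One gene that this rule names is not reported here.

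The correlation of same-numbered untreated and treated libraries' deviations from their group means ran from 0.109 to 0.333 in the 4 degron lines, over 0.1 for every pair, so the numbers were taken to pair samples there. In TIR1 cells it ran from -0.0102 to 0.0574. The alternatives tried were DESeq2 1.42.0, RLE scaling, a fit without the filter, only the compared groups, a 1.5-fold minimum, a replicate block, and leaving out each library.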

Additional observations from a re-analysis of the deposited data

Results flagged for a closer look

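Some results stood out because the effect of treatment differed between lines by a test of the difference itself (edgeR's quasi-likelihood test, Benjamini-Hochberg adjusted p under 0.05). Dab2 rose more than in TIR1 cells by 1.88 on the log2 scale in PDS5AB cells, 2.44 in WAPL cells, 1.55 in PDS5AB-NIPBL cells and 1.71 in WAPL-NIPBL cells. All 3 treated libraries lay above all 3 untreated ones in each of these 4 lines, as for 29.6%, 21.2%, 17.7% and 14.4% of all genes. Foxa2 rose more in WAPL than in TIR1 cells by 2.11, on 2 to 34 fragments a library. Pdgfra rose more in PDS5AB-NIPBL than in PDS5AB cells by 0.99. The TIR1 effect, which enters the Dab2 and Foxa2 differences, compares 2 library sets.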

How the results depend on the processing

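Of 33 member results called, 22 were called under every alternative run and 11 were lost under at least 1. Of 102 not called, 15 were called under at least 1. No called value reversed. With RLE size factors or only the compared groups, no count of members called moved by over 1.5 times.

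With a 1.5-fold minimum, the count of members called fell to 1 in the TIR1 effect, 3 in the WAPL effect, 0 in untreated WAPL and 1 in untreated PDS5AB-NIPBL cells against TIR1, 1 in WAPL minus TIR1 and 0 in PDS5AB-NIPBL minus PDS5AB. The shares of all genes called fell too, to 1.18%, 6.24%, 1.09%, 7.03%, 4.26% and 0.337% in these comparisons. With the replicate block it was 5 in the WAPL-NIPBL effect, 3 in PDS5AB minus TIR1 (1 of them lower, Hnf4a at -0.51), 4 in WAPL minus TIR1 (1 lower, Hnf4a at -0.57), 2 in PDS5AB-NIPBL minus TIR1 and 1 in WAPL-NIPBL minus WAPL, where 20.9%, 40.2%, 35.4%, 25.1% and 15.5% of all genes were called against 8.57%, 26.3%, 20.7%, 10.1% and 5.19% without it. The block added Gata4 in PDS5AB minus TIR1 (0.88, adjusted p = 0.0133) and Pdgfra in PDS5AB-NIPBL minus TIR1 (0.61, 0.00952). The pairing holds in the degron lines only. For TIR1 cells, where the numbers do not pair the samples, the block also called Gata6 (0.78, adjusted p = 0.0349), and against them it called Gata6 lower in untreated PDS5AB-NIPBL cells (-0.95, 0.0426). DESeq2 called 2 in PDS5AB minus TIR1, adding Gata4 (0.88, 0.047), and without the filter 1 was called in WAPL-NIPBL minus WAPL.

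Leaving out 1 library gave 3 to 5 members in the WAPL effect, 1 to 2 in PDS5AB minus TIR1, 1 to 3 in WAPL minus TIR1 and 1 to 2 in PDS5AB-NIPBL minus TIR1. Sox17, Foxa2, Sox7 and Cubn average under 15 fragments a library and Afp 2.43, which limits their precision. Of 15 genes ranked among the first 3 by likeness, 7 fell outside the first 3 with Spearman's rho and 10 over group means.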
